A study of Mus musculus with 4 samples.

Results

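The comparison described here is that of mouse DFAT cells transfected with an siRNA against Mkl1 and DFAT cells transfected with a control siRNA. The arrays were chosen by their labels, 1 for each side, so that 2 of the 4 arrays in the series enter every difference, which was computed for all 18193 genes read by a probe set with a single gene symbol. DFAT (de-differentiated fat) cells are fibroblast-like and arise in culture when mature fat cells shed their lipid. The cells of all 4 groups were kept in DMEM with fetal bovine serum at 10% and CO2 at 5%, and total RNA was hybridised to Affymetrix mouse arrays. The 4 groups were DMSO treatment, Y-27632 treatment, control siRNA transfection and Mkl1 siRNA transfection, with DMSO being the solvent and Y-27632 an inhibitor of the ROCK kinases. The sequence, number and dose of the siRNAs, the time of harvest, whether the DMSO and Y-27632 cells were transfected, and the use of a fat-inducing medium are not stated in the sources used here. With 1 array per group no spread between replicates could be estimated, so no value below has a replicate check, no test was possible, and "higher" and "lower" describe these arrays only.

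Levels are log2 RMA signals, in which background has been corrected, arrays have been brought to a common distribution and the probes of a probe set combined. Gene lists, which were set with earlier results of these data known, are given by their measured members, and other listed genes are not analysed here. Differences are Mkl1 siRNA minus control siRNA unless stated otherwise, so that 1 stands for a 2-fold ratio. Array medians lay between 5.67 and 5.71, and over all probe sets the Mkl1 siRNA and control siRNA arrays had a Pearson correlation of 0.991. The 3 probe sets for 18S ribosomal RNA differed by -0.50 to -0.43 and the 3 for Gapdh by -0.29 to -0.26. The median over all genes was -0.02, with an SD of 0.373. The control siRNA array was also set against DMSO, as the difference between the 2 control arrays, and its values stand beside the results they touch. Because the comparison with DMSO shares the control siRNA array, a gene that is high on that array by itself appears as lower with Mkl1 siRNA and as higher in control siRNA against DMSO.

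Mkl1, now named Mrtfa, encodes a coactivator that carries actin-binding repeats. Monomeric actin holds it in the cytoplasm, and when actin polymerises it is released, enters the nucleus and binds the transcription factor SRF at CArG boxes in front of many cytoskeletal, contractile and adhesion genes. In precursors of fat cells the MRTF-SRF pathway is known as a brake on fat cell formation, and loss of stress fibres is known to accompany the induction of Pparg, the master regulator of fat cell genes.

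The targeted transcript was lower on its own array. Mrtfa, read by 1 probe set, gave 8.32 with DMSO, 8.18 with Y-27632, 8.55 with control siRNA and 7.70 with Mkl1 siRNA. Mkl1 siRNA thus had the lowest of the 4 signals, with a difference of -0.85 from control siRNA, a ratio of 0.554. Mrtfb, which encodes the closest relative of the protein and can also activate SRF, gave 10.47 with Mkl1 siRNA and 10.43 with control siRNA, beside 10.15 with DMSO and 9.93 with Y-27632, and its 3 probe sets differed by -0.16 to 0.22. Srf itself gave 9.06 with DMSO, 8.85 with Y-27632, 8.93 with control siRNA and 8.44 with Mkl1 siRNA, again with the lowest signal after Mkl1 siRNA, and differed by -0.49. The gene for myocardin, Myocd, the muscle-restricted member of the family, read between 3.96 and 4.22 on all 4 arrays, below the median of all values (5.69).

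The promoters of the lower gene classes can be read directly. The stretches below are from RefSeq (GRCm38.p6), lie wholly upstream of the annotated start, are written 5′ to 3′ on the strand of the gene, and carry the matched motif in capitals. The CArG box stretches are shown because SRF, the partner of the targeted coactivator, binds this motif. They come from the contractile, actin and LIM lists described further on and are those of the 5 lowest members whose 250 bases before the start hold a CArG box: Fhl2 (chr1:43163962-43164017, minus strand), Myl9 (chr2:156775278-156775337, plus strand), Fhl1 (chrX:56779556-56779615, plus strand), Cnn2 (chr10:79988519-79988578, plus strand) and Rnd3 (chr2:51149177-51149236, minus strand).
Fhl2: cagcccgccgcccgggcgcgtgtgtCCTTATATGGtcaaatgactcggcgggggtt
Myl9: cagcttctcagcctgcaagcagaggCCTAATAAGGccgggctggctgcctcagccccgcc
Fhl1: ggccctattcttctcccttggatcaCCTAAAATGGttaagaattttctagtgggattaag
Cnn2: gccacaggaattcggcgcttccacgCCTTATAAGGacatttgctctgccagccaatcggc
Rnd3: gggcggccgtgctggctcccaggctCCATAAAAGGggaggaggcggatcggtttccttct
Fhl2 differed by -1.39, Myl9 by -1.09, Fhl1 by -0.63, Cnn2 by -0.57 and Rnd3 by -0.52. Among 32851 promoter windows of the table, which run from 250 bases before to 50 bases after a start, 1.63% held a CArG box on either strand. The share was 23.5% (4 of 17 windows) in the list of actins, tropomyosins, calponins and transgelins and 14.6% (6 of 41) in the list of LIM domain and actin-binding adhesion proteins. Of 64 measured genes of the contractile, actin and LIM lists with a window, 13 had a CArG box before the start, and 12 of these 13 were below 0, as were 44 of the other 51. The medians were -0.34 and -0.23, and this difference was not tested. A match is a description of the letters, not of binding by SRF.

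Further motifs were searched in the same windows for the lists of YAP and TAZ targets, mitosis genes and interferon-stimulated genes, which lay lower too. The stretches are those of the 3 lowest members of each list with a match before the start, chosen after their values were seen. CATTCC, the motif of the TEAD factors through which YAP and TAZ act, is shown for Ankrd1 (chr19:36119937-36119992, minus strand), Axl (chr7:25788936-25788983, minus strand) and Ccn1 (chr3:145650058-145650113, minus strand), and capitals that read GGAATG mark it on the opposite strand.
Ankrd1: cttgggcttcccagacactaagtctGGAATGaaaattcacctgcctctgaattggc
Axl: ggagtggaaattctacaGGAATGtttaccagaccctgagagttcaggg
Ccn1: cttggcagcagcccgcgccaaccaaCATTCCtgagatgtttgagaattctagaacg
TTTGAA, the letters of the cell cycle homology region through which mitotic genes are kept silent outside division, is shown for Ccnb2 (chr9:70421691-70421746, minus strand), Ube2c (chr2:164769875-164769928, plus strand) and Kif11 (chr19:37376338-37376381, plus strand), with TTCAAA marking the opposite strand. The match begins 167 bases before the start for Ccnb2, 29 for Ube2c and 19 for Kif11.
Ccnb2: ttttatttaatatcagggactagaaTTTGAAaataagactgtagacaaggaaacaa
Ube2c: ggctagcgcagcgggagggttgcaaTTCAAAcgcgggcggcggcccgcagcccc
Kif11: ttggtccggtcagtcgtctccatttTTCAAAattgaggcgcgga
A pair of GAAA letters with any 2 bases between them, the core of the element bound by interferon-activated factors, is shown for Ifit3 (chr19:34583382-34583441, plus strand), Rsad2 (chr12:26456538-26456597, minus strand) and Gbp2 (chr3:142620579-142620638, plus strand), each time on the opposite strand.
Ifit3: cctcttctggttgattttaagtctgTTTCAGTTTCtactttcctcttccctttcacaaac
Rsad2: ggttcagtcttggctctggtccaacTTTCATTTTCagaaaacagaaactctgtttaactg
Gbp2: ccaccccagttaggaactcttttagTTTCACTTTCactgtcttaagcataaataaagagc
CATTCC was present in 54.2% of the windows of the YAP and TAZ list (13 of 24) and in 14.7% of all windows. TTTGAA stood in 81.8% of the windows of the mitosis list (27 of 33) against 17.9% of all windows, and the GAAA pair in 51.6% of the interferon list (16 of 31) against 3.44%. TCACNCCAC, a sterol element, was found in 5.88% of the windows of the cholesterol list (1 of 17) and in 1.24% of all windows. The matches to these motifs too describe letters, not binding or function. Motifs can share a window: 75 windows of the table held a CArG box and a TEAD motif, 979 a TEAD motif and TTTGAA, and 262 TTTGAA and the GAAA pair, and the TEAD motif also stood in 41.2% of the windows of the actin list.

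**Figure D1:**
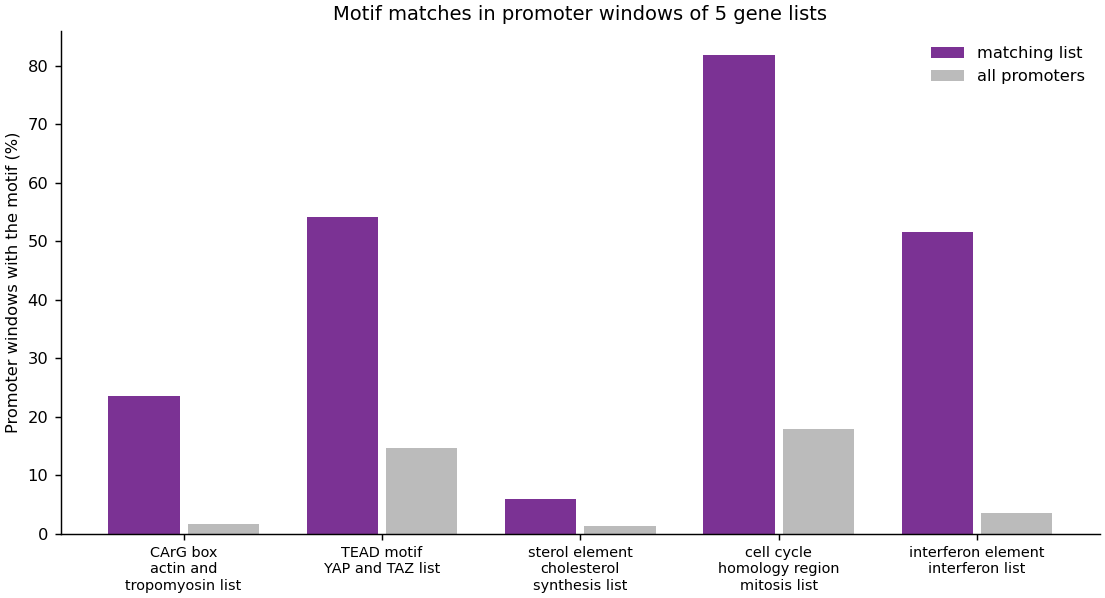
Bars give the share of promoter windows, in percent, that hold a motif on either strand, for the gene list named under each motif (purple) and for all 32851 windows (grey). The list bars stand at 23.5%, 54.2%, 5.88%, 81.8% and 51.6% and the grey bars at 1.63%, 14.7%, 1.24%, 17.9% and 3.44%.

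Across all genes, 218 (1.2%) exceeded control siRNA by 2-fold or more with Mkl1 siRNA and 207 (1.14%) fell short of it by 2-fold or more, 425 in either direction (2.34%). Further out the balance lay on the higher side, with 40 higher and 14 lower genes past 4-fold, and 13 and 4 past 8-fold. Between control siRNA and DMSO the counts were 113 higher (0.621%) and 131 lower (0.72%), 244 together (1.34%). Of the 218 higher genes, the Mkl1 siRNA array was above each of the other 3 arrays for 180, whereas for 99 the control siRNA array was below each of the others. Of the 207 lower genes, the Mkl1 siRNA array was the lowest of the 4 for 190, and the control siRNA array was the highest for 112. The higher genes were weaker on average, with a median mean level of 7.38 against 8.67 for the lower genes, and 61 of the 218 had a control siRNA signal below the median of all values, a range in which RMA is known to compress differences. For 49 of the 207 lower genes the Mkl1 siRNA signal lay in the same range. For 226 of the 425 genes several probe sets were present, and in 179 of them none differed in sign from the others.

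**Figure D2:**
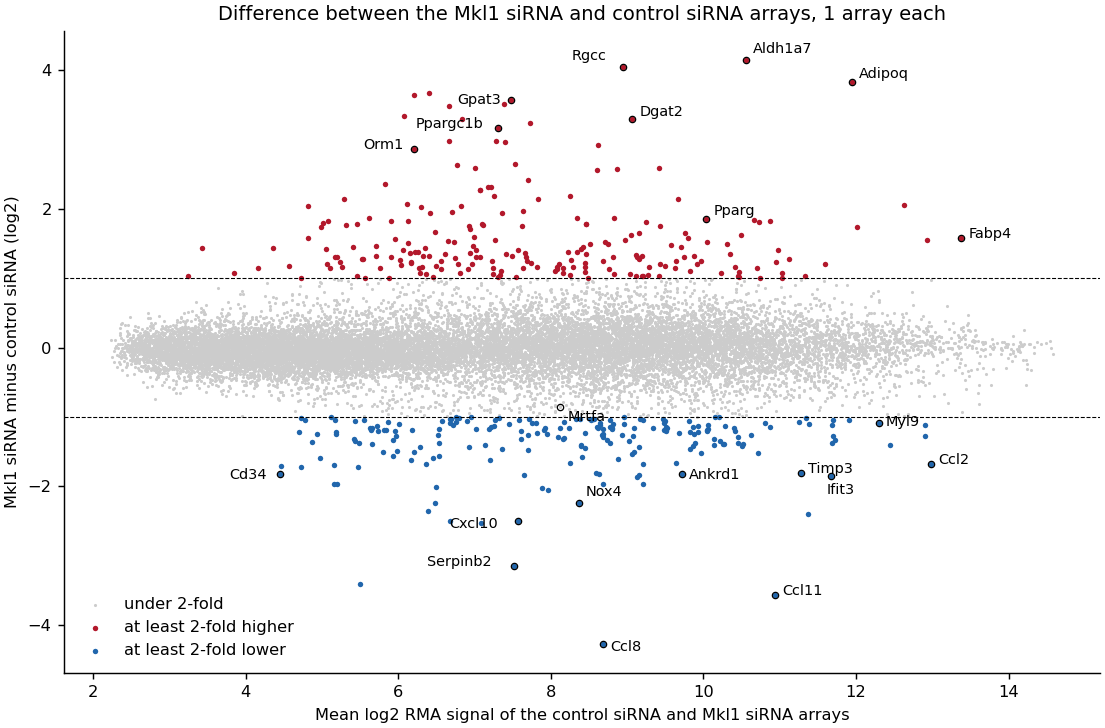
Each point is a gene, with the mean log2 RMA signal of both siRNA arrays on the horizontal axis and the difference between them on the vertical axis. Red points (218) are higher and blue points (207) lower with Mkl1 siRNA by 2-fold or more, and dashed lines mark 2-fold; the highest labelled gene is Aldh1a7 at 4.14 and the lowest Ccl8 at -4.27.

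Contractile and cytoskeletal genes stood mostly on the lower side. All 18 measured actins, tropomyosins, calponins and transgelins were below 0 (over all genes, 53.3% were), with a median of -0.43 and 1 past 2-fold. Smtn, which encodes the smooth muscle actin-binding protein smoothelin, gave 6.21 with Mkl1 siRNA and 7.29 with control siRNA, beside 7.85 with DMSO and 8.18 with Y-27632. Its signal after Mkl1 siRNA was the lowest of the 4, 2.11-fold below control siRNA. Tpm2, a tropomyosin that stabilises actin filaments, gave 12.85 with DMSO, 12.53 with Y-27632, 13.17 with control siRNA and 12.19 with Mkl1 siRNA, so that both siRNA arrays bracket the other arrays, and its 4 probe sets ran from -1.26 to -0.09. Tagln, the calponin-related protein transgelin, gave 12.20 with Mkl1 siRNA and 13.16 with control siRNA, beside 12.77 with DMSO and 11.52 with Y-27632, with Y-27632 below Mkl1 siRNA. Acta2, smooth muscle actin, gave 13.88 with DMSO, 13.29 with Y-27632, 14.04 with control siRNA and 13.50 with Mkl1 siRNA, and its 3 probe sets ran from -1.69 to -0.54. The cytoplasmic actins differed less, with -0.04 for Actb and -0.29 for Actg1, and Cald1 (caldesmon) was the closest to 0 at -0.01. Actb and Actg1 read 14.08 and 13.82 with control siRNA, near the top of the scale (14.6), which limits the differences they can show. Between control siRNA and DMSO this list was split, 9 above and 9 below 0 (51.5% and 48.0% of all genes).

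The myosin list was more mixed, with 17 of 25 below 0 (53.3% of all genes were). Its median was -0.10, or 0.02 against DMSO. Myl9, the regulatory light chain of smooth muscle and non-muscle myosin, gave 11.75 with Mkl1 siRNA and 12.84 with control siRNA, beside 12.58 with DMSO and 12.30 with Y-27632, the lowest with Mkl1 siRNA. Mylk, the kinase that phosphorylates this light chain, stood on the opposite side. It gave 8.47 with DMSO, 9.06 with Y-27632, 8.68 with control siRNA and 9.71 with Mkl1 siRNA, the highest with Mkl1 siRNA, although its 3 probe sets ran from 0.02 to 1.13. The upstream regulators Rhoa and Rock1 differed by -0.04 and 0.01, and the heavy chains Myh9 and Myh10 by -0.09 and -0.15. Arhgef2, an exchange factor that activates RhoA, differed by -0.61. Kcnmb1, which encodes the accessory subunit of the calcium-activated potassium channel of smooth muscle, was among the 30 lowest genes. It gave 4.17 with Mkl1 siRNA and 6.14 with control siRNA, beside 6.56 with DMSO and 6.63 with Y-27632, but its second probe set differed by 0.07.

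LIM domain and actin-binding adhesion proteins link stress fibres to integrins. In this list 29 of 33 were below 0 (53.3% of all genes were), with a median of -0.32. Fhl2, a LIM-only protein that is itself an SRF target and binds SRF, gave 10.65 with DMSO, 10.34 with Y-27632, 11.22 with control siRNA and 9.83 with Mkl1 siRNA. Control siRNA was the highest and Mkl1 siRNA the lowest, a 2.62-fold ratio. Ablim1, an actin-binding LIM protein, gave 7.54 with Mkl1 siRNA and 8.70 with control siRNA, beside 8.83 with DMSO and 8.39 with Y-27632, with 4 probe sets from -1.23 to 0.24. Csrp1, a cysteine-rich LIM protein bound to actinin, differed by -0.80, the filamin Flnc by -0.66, and Tes (testin) and Vasp, which promotes filament growth, by -0.58 and -0.57. Talin (Tln1), which activates integrins, differed by -0.47 and vinculin (Vcl) by -0.15. The 4 members above 0 were Lima1 at 0.18, Pdlim1 at 0.12, Crip2 at 0.11 and Pxn (paxillin) at 0.10. Of the 33, 17 were above and 16 below 0 in control siRNA against DMSO.

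Among SRF, its cofactors and actin regulators, 15 of 19 were below 0 (53.3% of all genes were), with a median of -0.30. Elk3, a ternary complex factor that shares SRF with MRTF, differed by -0.63 and Elk4 by -0.30. The formin Diaph1, which polymerises actin downstream of RhoA, gave 10.00 with DMSO, 9.83 with Y-27632, 10.16 with control siRNA and 9.54 with Mkl1 siRNA, the lowest with Mkl1 siRNA, and Mical2, an oxidase that acts on nuclear actin, differed by -0.61. Diaph2, a second formin, lay the other way and gave 11.26 with Mkl1 siRNA and 10.71 with control siRNA, beside 9.94 with DMSO and 10.34 with Y-27632, and there both siRNA arrays were above the other 2. Scai, which encodes a repressor of MRTF, differed by 0.48. Cofilin (Cfl1), which severs filaments, was at -0.08.

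The YAP and TAZ list had 21 of 27 members below 0 (53.3% of all genes were) and a median of -0.31. The regulators themselves stood near 0, with Yap1 at 0.20, Wwtr1 (which encodes TAZ) at -0.22, Tead1 at -0.03 and Lats1 at 0.07. Several targets lay further from 0. Ankrd1, a nuclear ankyrin-repeat protein, gave 11.20 with DMSO, 9.99 with Y-27632, 10.63 with control siRNA and 8.80 with Mkl1 siRNA, and its signals after Mkl1 siRNA and Y-27632 were the 2 lowest. Axl, a receptor tyrosine kinase, gave 10.72 with Mkl1 siRNA and 11.79 with control siRNA, beside 11.81 with DMSO and 11.17 with Y-27632, while its second probe set stood at 0.00. Ccn2, a secreted matrix-associated protein, gave 13.26 with DMSO, 11.83 with Y-27632, 13.86 with control siRNA and 12.93 with Mkl1 siRNA. There Y-27632 was the lowest, and Mkl1 siRNA, a 1.9-fold ratio below control siRNA, stood between Y-27632 and DMSO. F3 (tissue factor) differed by -0.62 and Amotl2, an angiomotin that restrains YAP, by -0.44, while Ptpn14 was the highest at 0.35.

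**Figure D3:**
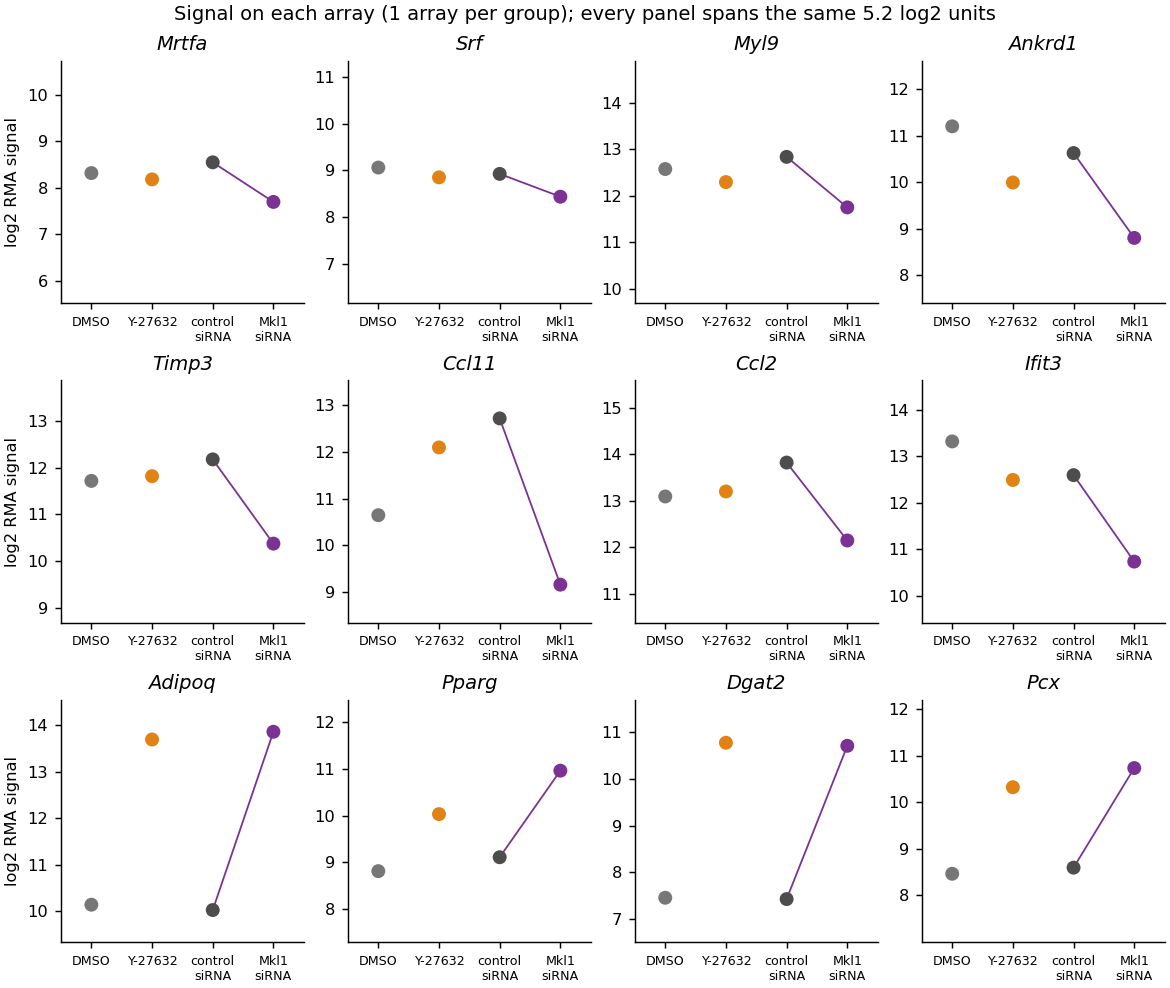
Points give the log2 RMA signal of 12 genes on each of the 4 arrays, 1 array per group, and a line joins the 2 siRNA arrays; the vertical axes start at different levels and all span the same range. The upper 8 genes (Mrtfa, Srf, Myl9, Ankrd1, Timp3, Ccl11, Ccl2 and Ifit3) are lowest with Mkl1 siRNA, and the lower 4 (Adipoq, Pparg, Dgat2 and Pcx) stand with Mkl1 siRNA and Y-27632 above both control arrays.

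Integrins, the receptors that couple matrix to actin, had 15 of 19 members below 0 (53.3% of all genes were). Their median was -0.21. Itgb3 gave 7.25 with Mkl1 siRNA and 8.34 with control siRNA, beside 7.42 with DMSO and 7.70 with Y-27632, and control siRNA was itself the highest array. Itgav, its partner in the vitronectin receptor, differed by -0.69, Itga5, part of the fibronectin receptor, by -0.82, and the shared chain Itgb1 by -0.60. The alpha chains Itga8, Itga6 and Itga1 stood on the other side at 1.35, 0.93 and 0.77. Itga8 gave 7.0 with DMSO, 8.57 with Y-27632, 7.78 with control siRNA and 9.13 with Mkl1 siRNA, with 2 probe sets at 0.20 and 1.35.

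Collagen genes and the enzymes that modify collagen were the matrix class furthest below control siRNA. Of 33, 29 were below 0 and 6 past 2-fold (53.3% and 1.14% of all genes were), with a median of -0.48. The medians were 0.01 for control siRNA against DMSO and -0.46 for Mkl1 siRNA against DMSO. Col11a1, a fibrillar collagen chain, gave 6.73 with Mkl1 siRNA and 8.57 with control siRNA, beside 7.89 with DMSO and 8.11 with Y-27632, the lowest with Mkl1 siRNA. Col1a1, the main chain of type I collagen, gave 12.57 with DMSO, 12.75 with Y-27632, 12.23 with control siRNA and 11.18 with Mkl1 siRNA, with both probe sets below -1. Its partner chain Col1a2 differed by -0.31 and Col3a1 by -0.32 on probe sets that read 14.40 and 14.46 with control siRNA, near the top of the scale (14.6), and other probe sets reached -1.22 and -1.51. Col8a1, a short-chain collagen of vessel walls, differed by -1.40 and the basement membrane chain Col4a5 by -1.18. Among the enzymes, P4ha3, a prolyl hydroxylase subunit, gave 6.20 with Mkl1 siRNA and 7.64 with control siRNA, beside 6.28 with DMSO and 6.0 with Y-27632, where control siRNA stood alone as the highest array and the other 3 lay between 6.0 and 6.28. The lysyl oxidase Lox, which crosslinks collagen and elastin, differed by -0.80, Loxl3 by -1.01 and the lysyl hydroxylase Plod1 by -0.85. Col8a2, P4ha2, Col12a1 and Col14a1 were the 4 members above 0, at 0.17 to 0.30.

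Matricellular and adhesive glycoproteins showed 22 of 29 below 0 (53.3% of all genes were) and a median of -0.37. Against DMSO, however, the median was -0.13. Ccn4, a Wnt-induced matricellular protein, gave 11.22 with DMSO, 10.84 with Y-27632, 10.73 with control siRNA and 9.21 with Mkl1 siRNA, and Lamc1, the common laminin gamma chain, gave 8.93 with Mkl1 siRNA and 10.08 with control siRNA, beside 10.12 with DMSO and 10.73 with Y-27632. For both, Mkl1 siRNA was the lowest array by more than 1 log2 unit. Tnc (tenascin C) differed by -1.37, the laminin chain Lama2 by -0.94, Sparc by -0.54 and fibronectin (Fn1) by -0.29. Smoc2, a calcium-binding matrix protein, gave 9.42 with DMSO, 8.76 with Y-27632, 10.65 with control siRNA and 9.45 with Mkl1 siRNA. Its Mkl1 siRNA and DMSO signals were almost the same, and control siRNA was the array that stood apart.

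Proteoglycans and elastic fibre proteins were split more evenly, with 21 of 33 below 0 (53.3% of all genes were). The median was -0.12, and 0.00 against DMSO. Efemp1 (fibulin 3) gave 4.21 with Mkl1 siRNA and 6.17 with control siRNA, beside 6.76 with DMSO and 6.88 with Y-27632, the lowest with Mkl1 siRNA. Mgp, the matrix Gla protein that prevents calcification, gave 9.76 with DMSO, 11.82 with Y-27632, 12.56 with control siRNA and 10.17 with Mkl1 siRNA, so that Mkl1 siRNA was below control siRNA and above DMSO. Fbln2 and Prelp, both of the fibrous matrix, differed by -0.99 and -0.91. Dcn (decorin), which binds collagen fibrils, gave 11.16 with Mkl1 siRNA and 10.55 with control siRNA, beside 12.62 with DMSO and 13.56 with Y-27632, and both siRNA arrays were below the other 2. The fibulin Fbln1 and the glypican Gpc1 stood at 0.79 and 0.71.

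Matrix proteases and their inhibitors had 22 of 33 members below 0 (53.3% of all genes were) and a median of -0.10. The inhibitors held the lowest places: Serpinb2, which inhibits urokinase, gave 10.10 with DMSO, 9.36 with Y-27632, 9.09 with control siRNA and 5.93 with Mkl1 siRNA. The siRNA arrays thus differed 8.89-fold. Timp3, a matrix-bound inhibitor of metalloproteinases, gave 10.37 with Mkl1 siRNA and 12.18 with control siRNA, beside 11.72 with DMSO and 11.82 with Y-27632, the lowest with Mkl1 siRNA, and its 4 probe sets ran from -2.58 to -1.81. Timp1 differed by -1.27, whereas Timp2 stood at 0.07. Among proteases Plau (urokinase) differed by -0.76 and Adam19 by -0.99, while Adam12 and the collagenase Mmp13 were at 1.15 and 1.59. Mmp13 gave 3.99 with DMSO, 5.23 with Y-27632, 4.02 with control siRNA and 5.6 with Mkl1 siRNA, below the median of all values on each array.

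**Figure D4:**
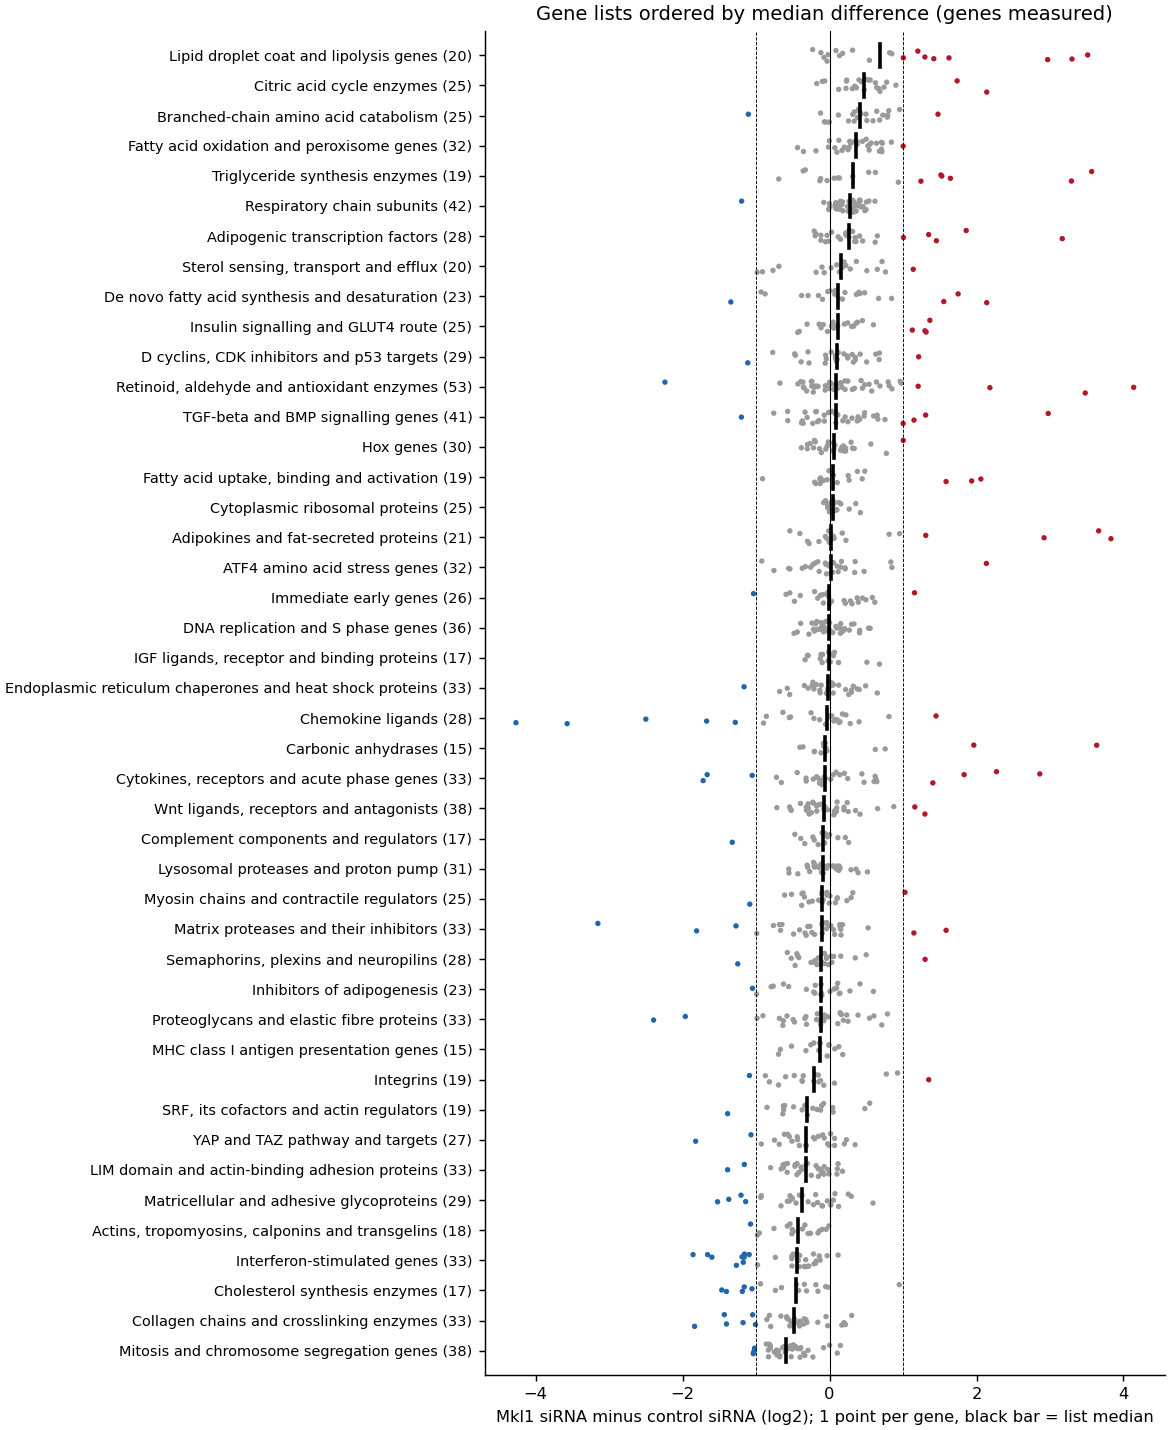
Each point is a gene and each row a gene list with the number of genes measured, ordered by median; the horizontal axis is the log2 difference between Mkl1 siRNA and control siRNA, black bars are medians, dashed lines mark 2-fold, and red and blue points lie beyond them. Lipid droplet genes (median 0.68) and citric acid cycle enzymes (0.47) are at the top, and collagens (-0.48) and mitosis genes (-0.59) at the bottom.

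Many fat cell genes stood on the higher side. In bulk RNA, fewer cells of a type and less RNA per cell cannot be told apart, which applies to every list here. Among 28 adipogenic transcription factors and coactivators 20 were above 0 (46.2% of all genes were), 5 by 2-fold or more, and the median was 0.27. Ppargc1b, a coactivator that raises mitochondrial gene expression, gave 8.89 with Mkl1 siRNA and 5.73 with control siRNA, beside 5.94 with DMSO and 7.79 with Y-27632, and its relative Ppargc1a read 3.69 and 3.84 on the siRNA arrays. Pparg gave 8.81 with DMSO, 10.03 with Y-27632, 9.11 with control siRNA and 10.96 with Mkl1 siRNA, and Cebpa, which acts with it, gave 10.43 with Mkl1 siRNA and 8.98 with control siRNA, beside 8.40 with DMSO and 9.51 with Y-27632. For all 3, the Mkl1 siRNA array was the highest and Y-27632 the next. Zfp423, a marker of committed fat precursors, gave 5.75 with DMSO, 6.57 with Y-27632, 5.93 with control siRNA and 7.28 with Mkl1 siRNA, in the same order. Cebpb and Cebpd, which act earlier, differed by 0.34 and 0.27, and Nr1h3, the sterol-sensing receptor LXR alpha, by 0.65. Klf15 gave 6.06 with Mkl1 siRNA and 5.05 with control siRNA, beside 6.02 with DMSO and 7.06 with Y-27632, which placed Mkl1 siRNA level with DMSO and control siRNA below both. Of 23 inhibitors of adipogenesis 14 were below 0, not far from the share over all genes (53.3%), with a median of -0.11. Sox9 differed by -1.05, with 3 probe sets from -1.07 to 0.06, and Gata3 by -0.99. Hes1, a Notch target, differed by -0.80, Klf2 by -0.77 and the insulin-restrained factor Foxo1 by 0.60.

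Triglyceride is built from glycerol 3-phosphate in consecutive acylation steps, and the genes of each step can be followed. Gpd1, which supplies glycerol 3-phosphate, gave 6.13 with DMSO, 7.41 with Y-27632, 5.97 with control siRNA and 7.49 with Mkl1 siRNA, with 4 probe sets from 0.25 to 1.52. Gpat3, which adds the first acyl chain, gave 9.26 with Mkl1 siRNA and 5.70 with control siRNA, beside 6.82 with DMSO and 8.78 with Y-27632. Mkl1 siRNA was the highest array and control siRNA the lowest, with a difference of -1.12 from DMSO. Agpat2, the next enzyme, gave 9.03 with DMSO, 10.96 with Y-27632, 8.94 with control siRNA and 10.59 with Mkl1 siRNA. Dgat2, which adds the last acyl chain, gave 10.71 with Mkl1 siRNA and 7.42 with control siRNA, beside 7.45 with DMSO and 10.78 with Y-27632, and Dgat1 gave 9.11 with DMSO, 10.49 with Y-27632, 9.28 with control siRNA and 10.81 with Mkl1 siRNA. In each of these 5 genes both control arrays lay below Y-27632 and Mkl1 siRNA. Lpin1, the phosphatidate phosphatase of the intermediate step, differed by 0.94, whereas its relative Lpin3 gave 6.17 with Mkl1 siRNA and 6.86 with control siRNA, beside 7.51 with DMSO and 7.44 with Y-27632, the lowest with Mkl1 siRNA. Bscl2 (seipin), which shapes the budding droplet, differed by 1.24. In all, 6 of 19 members were at least 2-fold higher and none was 2-fold lower (1.2% and 1.14% of all genes were). The isoenzymes Gpam, Gpat4 and Mogat1 stood at 0.13, 0.32 and -0.36, and the list median was 0.32, or 0.05 against DMSO.

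Lipid droplet coat and lipolysis genes had the highest median outside the marker lists, 0.68. Of 20, 15 were above 0 and 8 at least 2-fold higher (46.2% and 1.2% of all genes were). Cidec, which fuses droplets, gave 5.61 with DMSO, 8.78 with Y-27632, 5.19 with control siRNA and 8.49 with Mkl1 siRNA. Adig (adipogenin) gave 9.14 with Mkl1 siRNA and 5.63 with control siRNA, beside 5.80 with DMSO and 9.39 with Y-27632, and Fitm2, needed for droplet formation, gave 8.87 with DMSO, 9.71 with Y-27632, 9.31 with control siRNA and 10.51 with Mkl1 siRNA. Each was highest with Y-27632 or Mkl1 siRNA and low on both control arrays, except that control siRNA also exceeded DMSO for Fitm2. The enzymes that release fatty acids stood high as well: Pnpla2, the first lipase, gave 9.11 with Mkl1 siRNA and 7.69 with control siRNA, beside 7.69 with DMSO and 8.97 with Y-27632, and its inhibitor G0s2 gave 10.10 with DMSO, 10.98 with Y-27632, 9.68 with control siRNA and 11.30 with Mkl1 siRNA. Lipe, hormone-sensitive lipase, differed by 2.97 on the probe set used and by -0.25 on the second. Abhd5, the activator of Pnpla2, differed by 0.54. The coat protein Plin4 was at 0.85 and Plin2, present on droplets in most cells, at 0.31. Aqp7, the glycerol channel, differed by 1.0 from a signal of 4.22.

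For fatty acid uptake, Cd36, a fatty acid transporter, gave 8.32 with Mkl1 siRNA and 6.39 with control siRNA, beside 5.48 with DMSO and 8.85 with Y-27632. The carrier proteins Fabp4 and Fabp5 differed by 1.59 and 2.06. Fabp4 read 14.17 with Mkl1 siRNA, near the top of the scale (14.6), and its 4 probe sets ran from 1.38 to 3.07. Fabp5 gave 12.19 with DMSO, 13.37 with Y-27632, 11.60 with control siRNA and 13.66 with Mkl1 siRNA, so that control siRNA was the lowest and Mkl1 siRNA the highest. Lpl, the lipase that frees fatty acids from lipoproteins, read 14.07 with control siRNA, near the top of the scale (14.6), and differed by 0.25. Acsl3, an acyl-CoA synthetase of nascent droplets, was the lowest of the 19 at -0.91, and the list median was 0.05. Fatty acid synthesis and desaturation gave a median of 0.12 with 15 of 23 above 0 (46.2% of all genes were). Acaca and Fasn, which commit and complete palmitate synthesis, differed by 0.48 and 0.85, Acly by -0.29 and Acss2 by 0.67. The desaturase Scd1 gave 12.06 with DMSO, 13.89 with Y-27632, 12.16 with control siRNA and 13.71 with Mkl1 siRNA. Its 2 probe sets stood at 1.55 and 2.06. Thrsp differed by 1.75, with 3 probe sets from 0.07 to 5.19, and the desaturases Fads1 and Fads2 by 0.21 and -0.095. Fads3, a member of the desaturase family, went the other way and gave 9.54 with Mkl1 siRNA and 10.88 with control siRNA, beside 11.20 with DMSO and 10.20 with Y-27632, with all 3 probe sets below -1. The elongases Elovl6 and Elovl1 differed by -0.93 and -0.88.

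Secreted fat cell products divided by gene. Adipoq, the hormone adiponectin, gave 10.14 with DMSO, 13.69 with Y-27632, 10.03 with control siRNA and 13.86 with Mkl1 siRNA, and Retn, resistin, gave 10.08 with Mkl1 siRNA and 7.16 with control siRNA, beside 7.43 with DMSO and 10.96 with Y-27632. Both controls were low for both genes, and Mkl1 siRNA exceeded Y-27632 for Adipoq only. Rarres2 (chemerin) differed by 1.31, with 3 probe sets from -0.06 to 1.31. Agt (angiotensinogen) gave 9.61 with DMSO, 11.40 with Y-27632, 11.10 with control siRNA and 12.06 with Mkl1 siRNA, where control siRNA already stood above DMSO by 1.5. Lep (leptin) read 3.62 and 3.22 on the siRNA arrays and differed by -0.40, and Fgf21 by -0.54. The list of 21 had 4 members at least 2-fold higher (1.2% of all genes were) and a median of 0.02. Enpep, the aminopeptidase that cleaves angiotensin II, was among the 30 highest genes and gave 10.15 with Mkl1 siRNA and 7.57 with control siRNA, beside 6.82 with DMSO and 9.24 with Y-27632.

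In the insulin pathway some core components stood near 0 and others lower, while several adaptors and effectors were higher. The receptor Insr, Akt2 and Irs1 differed by 0.08, 0.06 and -0.13. Akt1 differed by -0.31, with all 4 probe sets below 0, and Pik3r1 by -0.41, with 3 of 4 below 0. Irs2, an adaptor of the receptor, gave 7.54 with DMSO, 7.64 with Y-27632, 6.83 with control siRNA and 8.14 with Mkl1 siRNA, Tbc1d4, the Akt substrate that holds back GLUT4 vesicles, gave 6.83 with Mkl1 siRNA and 5.47 with control siRNA, beside 5.21 with DMSO and 5.97 with Y-27632, and Pde3b, which mediates the antilipolytic action of insulin, gave 5.86 with DMSO, 7.08 with Y-27632, 6.10 with control siRNA and 7.39 with Mkl1 siRNA. The Mkl1 siRNA array was the highest for all 3. Sort1 (sortilin), a sorting receptor of GLUT4 vesicles, differed by 1.13, and Slc2a4, GLUT4 itself, by 0.33 at signals of 6.10 and 6.43. Of 25 genes 17 were above 0 (46.2% of all genes were), with a median of 0.11. Pfkfb3, which drives glycolysis, gave 8.91 with Mkl1 siRNA and 6.49 with control siRNA, beside 6.64 with DMSO and 8.80 with Y-27632 on the probe set used, and its other probe set differed by -0.06.

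Lists made up largely of mitochondrial genes stood above control siRNA together, by small amounts. The citric acid cycle list also holds the cytosolic enzymes Idh1, Mdh1 and Aco1, and the oxidation list holds peroxisomal genes. Citric acid cycle enzymes had 22 of 25 above 0, with a median of 0.47, the branched-chain amino acid list 20 of 25 with 0.41, fatty acid oxidation and peroxisome genes 27 of 32 with 0.36, and respiratory chain subunits 38 of 42 with 0.27. For control siRNA against DMSO these medians were -0.06, -0.03, 0.18 and 0.08. Pcx, pyruvate carboxylase, which feeds the cycle and supplies carbon for lipid synthesis, gave 8.47 with DMSO, 10.33 with Y-27632, 8.60 with control siRNA and 10.74 with Mkl1 siRNA. On the control probe sets for the same transcript the 3′ end differed by 2.10 and the 5′ end by 0.33. Idh1, a cytosolic source of NADPH, gave 12.89 with Mkl1 siRNA and 11.15 with control siRNA, beside 11.44 with DMSO and 12.14 with Y-27632, with both probe sets above 1.6, and in both genes the control arrays were the lowest. Idh3a, a subunit of the cycle's own isocitrate dehydrogenase, differed by 0.90, Pdhb, of the pyruvate dehydrogenase complex, by 0.78, and citrate synthase (Cs) by -0.07.

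Of the enzymes that break down valine, leucine and isoleucine, Aldh6a1, which acts late in valine breakdown, gave 8.90 with DMSO, 10.25 with Y-27632, 8.84 with control siRNA and 10.31 with Mkl1 siRNA, and both chains of the rate-limiting dehydrogenase stood at 0.95 (Bckdhb) and 0.81 (Bckdha). Bcat1, the cytosolic transaminase, was alone among the 25 below -1 and gave 8.41 with Mkl1 siRNA and 9.51 with control siRNA, beside 10.13 with DMSO and 9.70 with Y-27632, the lowest with Mkl1 siRNA, while the mitochondrial Bcat2 differed by 0.26. In oxidation Ehhadh, the peroxisomal bifunctional enzyme, differed by 1.0, Pex11a, which multiplies peroxisomes, by 0.84, the carnitine palmitoyltransferases Cpt2 and Cpt1a by 0.71 and 0.38, and Acadm by 0.71. In the respiratory chain Cyc1, of complex III, was the highest at 0.62 and only Cox7a1, the subunit of muscle and brown fat, was past 2-fold; it gave 6.10 with DMSO, 6.71 with Y-27632, 6.33 with control siRNA and 5.14 with Mkl1 siRNA. Cytoplasmic ribosomal proteins, for comparison, had a median of 0.05, with 25 genes between -0.08 and 0.42. Many of them read near the top of the scale (14.6), such as Rpl41 at 14.55 and Rps29 at 14.33 with control siRNA. This limits the differences that the list can show.

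**Figure D5:**
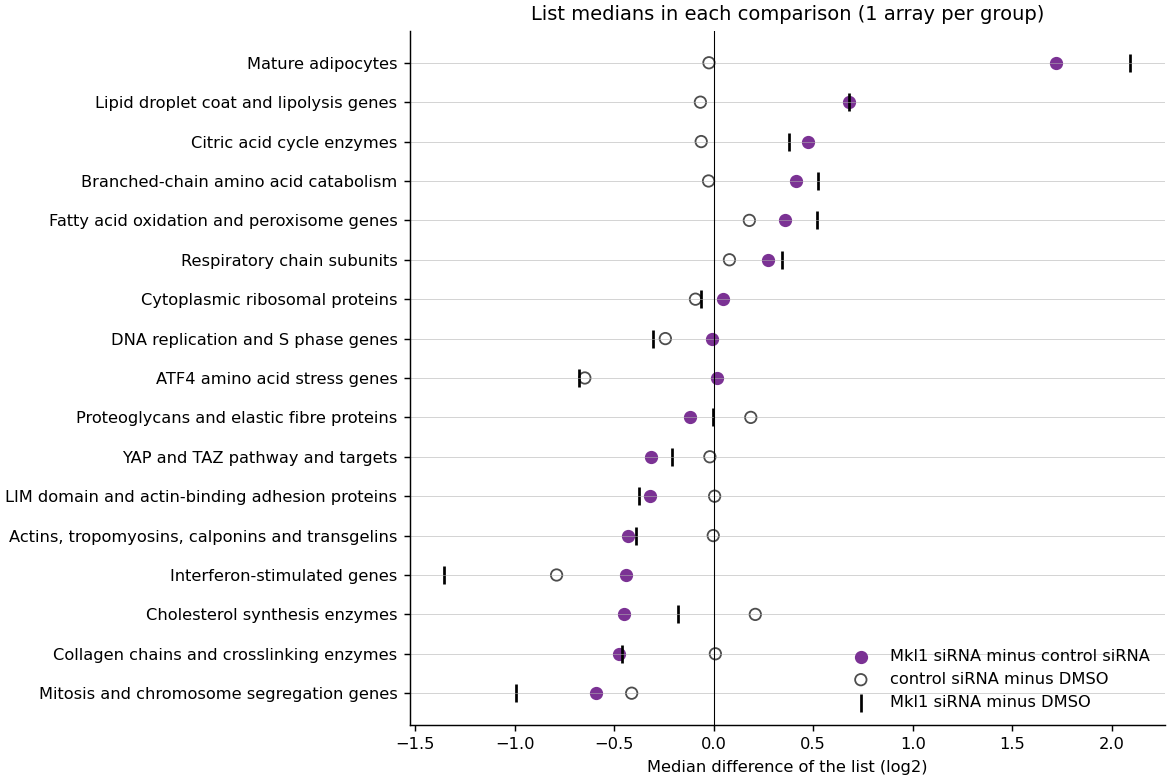
For 17 lists the median log2 difference is shown for Mkl1 siRNA minus control siRNA (filled), control siRNA minus DMSO (open) and Mkl1 siRNA minus DMSO (bar), 1 array per group. Mature adipocyte, collagen and actin medians have open circles near 0, whereas those of the interferon (-0.79), ATF4 (-0.65) and mitosis (-0.41) lists lie below 0.

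Cholesterol synthesis enzymes were low with Mkl1 siRNA and, in part, high with control siRNA. Of 17, 16 were below 0 and 5 past 2-fold (53.3% and 1.14% of all genes were), with a median of -0.45. Of the same 17, 16 were above 0 in control siRNA against DMSO, with a median of 0.21, and the median of Mkl1 siRNA against DMSO was -0.18. Msmo1, a demethylation enzyme of the later pathway, gave 9.08 with Mkl1 siRNA and 10.55 with control siRNA, beside 10.00 with DMSO and 9.91 with Y-27632, the lowest with Mkl1 siRNA. Fdft1 (squalene synthase), the first committed step, differed by -0.94, Fdps by -1.06 and Sqle by -0.45. Idi1, the isomerase of isoprenoid units, gave 9.64 with DMSO, 9.76 with Y-27632, 10.64 with control siRNA and 9.45 with Mkl1 siRNA, and Hsd17b7 gave 9.43 with Mkl1 siRNA and 10.84 with control siRNA, beside 8.65 with DMSO and 9.23 with Y-27632. There Mkl1 siRNA was below control siRNA, near DMSO for Idi1 and above it for Hsd17b7. Dhcr7, the last reductase, was the single member above 0, at 0.95. The factor that drives these genes, Srebf2, gave 8.60 with DMSO, 8.35 with Y-27632, 8.86 with control siRNA and 7.95 with Mkl1 siRNA, the lowest with Mkl1 siRNA, and Stard4, a sterol carrier and known target of it, gave 7.68 with Mkl1 siRNA and 8.67 with control siRNA, beside 8.69 with DMSO and 8.65 with Y-27632. The sterol sensing, transport and efflux list had 13 of 20 above 0 and a median of 0.15, with the efflux pumps and receptors Abca1 at 0.71, Scarb1 at 0.76 and Abcg1 at 0.28, and Insig1, which restrains the pathway, was at 0.51.

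Chemokine ligands included the lowest gene of the whole comparison. Of the 28, 5 lay below control siRNA by 2-fold or more and 1 above it. Over all genes these shares were 1.14% and 1.2%. The other members lay on both sides of 0, and the list median was -0.03. Ccl8, an attractant of monocytes, gave 9.69 with DMSO, 10.34 with Y-27632, 10.82 with control siRNA and 6.55 with Mkl1 siRNA. Ccl11 (eotaxin), which attracts eosinophils, gave 9.15 with Mkl1 siRNA and 12.72 with control siRNA, beside 10.64 with DMSO and 12.10 with Y-27632. The ratio of control siRNA to Mkl1 siRNA was 19.3 for Ccl8 and 11.9 for Ccl11, and Mkl1 siRNA was the lowest and control siRNA the highest of the 4 for both. Ccl2, which attracts monocytes, gave 13.09 with DMSO, 13.20 with Y-27632, 13.82 with control siRNA and 12.15 with Mkl1 siRNA. Ccl7, its neighbour in the same gene cluster, gave 12.27 with Mkl1 siRNA and 13.55 with control siRNA, beside 12.59 with DMSO and 12.77 with Y-27632, and again control siRNA was the highest and Mkl1 siRNA the lowest array for both. The interferon-induced Cxcl10 gave 9.0 with DMSO, 8.80 with Y-27632, 8.81 with control siRNA and 6.31 with Mkl1 siRNA, with the other 3 arrays at 8.80 to 9.0. Ccl9 and Ccl5 differed by -0.90 and -0.86. Cxcl14 alone lay above 2-fold and gave 9.15 with Mkl1 siRNA and 7.70 with control siRNA, beside 5.41 with DMSO and 6.43 with Y-27632, where both siRNA arrays were above the other 2, and Cxcl12, the stromal ligand of Cxcr4, gave 12.53 with DMSO, 12.50 with Y-27632, 11.88 with control siRNA and 12.69 with Mkl1 siRNA.

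Cytokine and acute phase genes stood on both sides, 16 above and 17 below 0. Orm1, an acute phase glycoprotein made by liver and fat, gave 7.63 with Mkl1 siRNA and 4.77 with control siRNA, beside 4.71 with DMSO and 7.69 with Y-27632, and Lcn2 gave 4.11 with DMSO, 8.39 with Y-27632, 5.94 with control siRNA and 8.21 with Mkl1 siRNA. Hp (haptoglobin) gave 11.58 with Mkl1 siRNA and 9.75 with control siRNA, beside 7.0 with DMSO and 10.64 with Y-27632, and for Lcn2 and Hp control siRNA also exceeded DMSO. The long pentraxin Ptx3 gave 10.83 with DMSO, 9.89 with Y-27632, 10.28 with control siRNA and 11.69 with Mkl1 siRNA. Saa1, serum amyloid A, lay the other way and gave 4.6 with Mkl1 siRNA and 6.32 with control siRNA, beside 6.30 with DMSO and 8.57 with Y-27632, lowest with Mkl1 siRNA and highest with Y-27632, whereas its relative Saa3 differed by 0.25. Il33, the alarmin of stromal cells, gave 10.27 with DMSO, 11.46 with Y-27632, 9.09 with control siRNA and 7.42 with Mkl1 siRNA, in which both siRNA arrays were below the other 2. Il6 and Csf1 differed by 0.62 and -0.72, and Tnf and Il1b by 0.02 and -0.07. In complement, C3ar1, the receptor of the C3a fragment, differed by -1.32 and the other 16 measured genes lay between -0.47 and 0.26.

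Interferon-stimulated genes were highest with DMSO and lowest with Mkl1 siRNA by their medians. Of 33, 32 were below 0 and 9 past 2-fold with Mkl1 siRNA against control siRNA (median -0.44), and 32 were below 0 and 12 past 2-fold with control siRNA against DMSO (median -0.79). The median was -1.35 for Mkl1 siRNA against DMSO and -0.60 for Y-27632 against DMSO. Ifit3, which restrains viral RNA, gave 10.74 with Mkl1 siRNA and 12.59 with control siRNA, beside 13.32 with DMSO and 12.49 with Y-27632. Rsad2 (viperin) gave 11.80 with DMSO, 11.27 with Y-27632, 10.47 with control siRNA and 8.81 with Mkl1 siRNA, and Cmpk2, its neighbour in the genome, differed by -1.19. Gbp2, a guanylate-binding protein induced by interferon gamma, gave 8.07 with Mkl1 siRNA and 9.67 with control siRNA, beside 9.44 with DMSO and 9.03 with Y-27632. Mkl1 siRNA was the lowest array for all 4, and for Gbp2 control siRNA was not below DMSO. Oas1a, an antiviral synthase, was the single exception at 0.12 and had stood at -1.41 in control siRNA against DMSO. The regulators Stat2, Irf9 and Irf7 differed by -0.49, -0.44 and -0.41. Class I antigen presentation showed less, with 12 of 15 below 0, a median of -0.13 and Tapbp (tapasin) lowest at -0.69, while H2-K1 and H2-D1 had probe sets on both sides. The 4 probe sets of H2-K1 ran from -0.52 to 0.18, with 3 below 0, and the 9 of H2-D1 from -0.86 to 0.10, with 6 below 0.

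Mitosis genes had the lowest list median, -0.59. Of 38, 35 were below 0 and 3 past 2-fold (53.3% and 1.14% of all genes were). In control siRNA against DMSO 37 of the 38 were below 0 with a median of -0.41, and the median of Mkl1 siRNA against DMSO was -1.0. Ccnb2, a mitotic cyclin, gave 9.46 with DMSO, 9.01 with Y-27632, 9.09 with control siRNA and 8.05 with Mkl1 siRNA, Kif23, a motor of cytokinesis, gave 7.20 with Mkl1 siRNA and 8.23 with control siRNA, beside 8.36 with DMSO and 7.99 with Y-27632, and Aspm, a spindle pole protein, gave 8.24 with DMSO, 7.75 with Y-27632, 7.83 with control siRNA and 6.81 with Mkl1 siRNA. DMSO was the highest array and Mkl1 siRNA the lowest for all 3. Anln, the actin-binding anillin of the contractile ring, differed by -0.82, Aurkb by -0.72, Mki67 by -0.51 and Cdk1 by -0.40. Incenp and Smc4 were the members above 0 by more than 0.1, at 0.15 and 0.11. DNA replication genes were evenly divided, with 18 above and 18 below 0 and a median of -0.01. Prim1 (primase) and Mcm7 (helicase) stood at 0.53 and 0.41, and Tk1 and Gins2 at -0.48 and -0.44. Among cyclins Ccnd2 gave 12.35 with Mkl1 siRNA and 13.47 with control siRNA, beside 13.04 with DMSO and 13.11 with Y-27632, the lowest with Mkl1 siRNA, with 7 probe sets from -1.56 to -1.11. Ccnd1 differed by -0.47, Cdk6 by 1.21, the inhibitor Cdkn1b (p27) by 0.50 and Cdkn1a (p21) by -0.05. The p53 targets Mdm2 and Ccng1 were at 0.35 and 0.42, and the list of 29 had a median of 0.10.

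Ligands, receptors and inhibitors of the BMP and TGF-beta pathways were described by role. Of the ligands, Inhba, the activin A subunit, gave 10.65 with DMSO, 10.30 with Y-27632, 11.02 with control siRNA and 9.82 with Mkl1 siRNA, the lowest with Mkl1 siRNA, and Tgfb2 differed by -0.57. Gdf5 differed by 1.15 from a signal of 3.58. Of the receptors, Tgfbr2 differed by -0.57 and Acvr1 by 0.60. Of the secreted antagonists, Chrdl1, which binds BMPs, gave 8.76 with Mkl1 siRNA and 5.79 with control siRNA, beside 6.62 with DMSO and 7.23 with Y-27632, the highest with Mkl1 siRNA and the lowest with control siRNA, and its 4 probe sets ran from 1.63 to 2.98. Fst (follistatin) and Grem1 differed by 0.75 and 0.48. The Id genes, which answer to BMP, were on the higher side, with Id1 at 1.0, Id2 at 1.31, Id3 at 0.41 and Id4 at 0.65, and Id2 gave 7.12 with DMSO, 8.38 with Y-27632, 8.47 with control siRNA and 9.78 with Mkl1 siRNA. The inhibitory Smad6 and Smad7 differed by 0.66 and -0.33. Over the 41 genes the median was 0.09, with 4 at least 2-fold higher and 1 lower (1.2% and 1.14% of all genes were).

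In the Wnt list, with a median of -0.08 over 38 genes, the extracellular antagonist Sfrp1 gave 10.99 with Mkl1 siRNA and 9.83 with control siRNA, beside 9.29 with DMSO and 9.13 with Y-27632, the highest with Mkl1 siRNA, and all 5 probe sets were above 0. Apcdd1, a membrane-bound Wnt inhibitor outside the list and among the 30 highest genes, gave 8.52 with DMSO, 9.69 with Y-27632, 8.11 with control siRNA and 10.71 with Mkl1 siRNA, and 6 probe sets ran from 0.83 to 2.82. The ligand Wnt2 differed by 1.30, the receptors Fzd4 and Fzd6 by 0.87 and -0.72, and Axin2, a common readout of canonical Wnt, by 0.24. The immediate early list, which holds direct targets of SRF with its ternary complex factors, had a median of -0.01, with Dusp4 at 1.16 and Egr2 at -1.03. Egr2 gave 7.81 with Mkl1 siRNA and 8.84 with control siRNA, beside 7.84 with DMSO and 9.39 with Y-27632, where Mkl1 siRNA was level with DMSO.

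Aldehyde, retinoid and antioxidant enzymes held several of the genes furthest from 0 around a median of 0.09. Aldh1a7 gave 10.84 with DMSO, 12.06 with Y-27632, 8.48 with control siRNA and 12.62 with Mkl1 siRNA, with the highest signal after Mkl1 siRNA and the lowest after control siRNA. Aox3, an aldehyde oxidase, gave 8.40 with Mkl1 siRNA and 4.92 with control siRNA, beside 5.05 with DMSO and 5.42 with Y-27632, in which only Mkl1 siRNA stood apart. Adh1, which oxidises retinol and ethanol, gave 12.70 with DMSO, 13.03 with Y-27632, 10.99 with control siRNA and 12.19 with Mkl1 siRNA, so that Mkl1 siRNA was above control siRNA and below DMSO. Gsta3, a glutathione transferase, gave 8.34 with Mkl1 siRNA and 6.16 with control siRNA, beside 4.65 with DMSO and 5.49 with Y-27632, Gclc, which limits glutathione synthesis, gave 9.25 with DMSO, 9.41 with Y-27632, 9.62 with control siRNA and 10.59 with Mkl1 siRNA, and Nqo1, a quinone reductase, gave 8.55 with Mkl1 siRNA and 7.70 with control siRNA, beside 6.87 with DMSO and 7.20 with Y-27632. Mkl1 siRNA was the highest for all 3. Nox4, which makes hydrogen peroxide, gave 7.46 with DMSO, 6.78 with Y-27632, 9.48 with control siRNA and 7.24 with Mkl1 siRNA, with control siRNA as the array that stood apart and Mkl1 siRNA near DMSO.

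The amino acid stress genes driven by ATF4 differed between the control arrays more than between the siRNA arrays. In control siRNA against DMSO 29 of 32 were below 0 with a median of -0.65, and with Mkl1 siRNA against control siRNA 17 were above and 15 below 0 with a median of 0.02. Cth, which makes cysteine, gave 8.89 with Mkl1 siRNA and 6.76 with control siRNA, beside 9.47 with DMSO and 9.52 with Y-27632, and Phgdh, which starts serine synthesis, gave 11.75 with DMSO, 11.54 with Y-27632, 10.01 with control siRNA and 10.85 with Mkl1 siRNA, both lowest with control siRNA. Atf4 itself differed by -0.37, Ddit3 by -0.56 and Atf5 by -0.92. Chaperones of the endoplasmic reticulum and heat shock proteins had a median of -0.02, with Hspa1a at -1.16 and Hspd1 at 0.65.

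Several of the 30 highest and 30 lowest genes fell outside these lists. On the higher side Wfdc21 gave 9.34 with Mkl1 siRNA and 6.10 with control siRNA, beside 5.88 with DMSO and 9.89 with Y-27632. Reep6, a membrane-shaping protein of the endoplasmic reticulum, gave 5.68 with DMSO, 8.36 with Y-27632, 5.18 with control siRNA and 8.15 with Mkl1 siRNA, and both control arrays were low for each. Adhfe1 and Abhd15 differed by 2.32 and 2.27, although other probe sets of each stood as low as -0.18 and -0.30. Olr1, a receptor for oxidised lipoprotein, gave 8.08 with Mkl1 siRNA and 5.46 with control siRNA, beside 3.20 with DMSO and 3.78 with Y-27632, and the stress kinase Map3k5 gave 5.98 with DMSO, 6.72 with Y-27632, 7.33 with control siRNA and 9.89 with Mkl1 siRNA. In both, control siRNA already lay above DMSO. Cd1d1, which presents lipid antigens, gave 8.33 with Mkl1 siRNA and 6.01 with control siRNA, beside 5.41 with DMSO and 7.36 with Y-27632, and the transcription factor Grhl1 gave 4.33 with DMSO, 4.92 with Y-27632, 4.65 with control siRNA and 7.0 with Mkl1 siRNA, the highest with Mkl1 siRNA. On the lower side Fgl2, a fibrinogen-like protein, gave 5.36 with Mkl1 siRNA and 7.6 with control siRNA, beside 9.0 with DMSO and 9.40 with Y-27632, and Entpd2, an enzyme that hydrolyses extracellular ATP, gave 10.53 with DMSO, 10.64 with Y-27632, 9.50 with control siRNA and 7.69 with Mkl1 siRNA. In both, control siRNA was below DMSO and Mkl1 siRNA lower again. F13a1, coagulation factor XIII, gave 5.49 with Mkl1 siRNA and 7.50 with control siRNA, beside 6.33 with DMSO and 7.90 with Y-27632, and the protease inhibitor Serpinb1a gave 8.10 with DMSO, 8.02 with Y-27632, 9.54 with control siRNA and 7.71 with Mkl1 siRNA. Acpp, an acid phosphatase that also makes adenosine, gave 7.70 with Mkl1 siRNA and 9.66 with control siRNA, beside 9.18 with DMSO and 10.69 with Y-27632, Pdgfrl 9.13 with DMSO, 8.99 with Y-27632, 10.07 with control siRNA and 8.19 with Mkl1 siRNA, and Sh3gl3, an endophilin, 6.94 with Mkl1 siRNA and 8.99 with control siRNA, beside 8.73 with DMSO and 8.43 with Y-27632. Mkl1 siRNA was the lowest array for each of these 7 genes.

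The remaining genes of both ends were the following. Rgcc, a regulator of cell cycle entry, gave 6.29 with DMSO, 9.93 with Y-27632, 6.92 with control siRNA and 10.96 with Mkl1 siRNA, and Lgals12, a galectin of lipid droplets, gave 8.23 with Mkl1 siRNA and 4.57 with control siRNA, beside 4.76 with DMSO and 7.74 with Y-27632, with probe sets from 0.35 to 3.66. Fcor, a corepressor of Foxo1 in fat, differed by 3.34, Rnf125, a ubiquitin ligase, by 2.58 and C730049O14Rik by 2.65. Clca2, a regulator of chloride channels, gave 5.81 with DMSO, 5.49 with Y-27632, 7.20 with control siRNA and 3.79 with Mkl1 siRNA, and Mme (neprilysin), a peptidase, gave 5.43 with Mkl1 siRNA and 7.92 with control siRNA, beside 6.78 with DMSO and 7.31 with Y-27632. For these 2 lower genes control siRNA also exceeded DMSO, by 1.39 for Clca2 and 1.14 for Mme. Npy1r, a receptor of neuropeptide Y, differed by -2.36, Pbp2 by -2.53 and 4930447F24Rik by -2.02. The others were the protease inhibitor Serpinb9b at -1.96, the lipid flippase Atp8b1 at -1.84, the carboxypeptidase Cpb1 at -1.72 and the receptor Gpr149 at -1.70.

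Markers of cell types were read for the label and for other cells. Of 15 progenitor and stromal markers 13 had a mean level above the median of all values, among them Pdgfra, Thy1, Vim and Col1a2 at 12.68 to 14.43 on the 4 arrays. With Mkl1 siRNA 14 of the 15 were below 0 (median -0.32), including Cd34, which read 4.57 with DMSO, 6.36 with Y-27632, 5.36 with control siRNA and 3.53 with Mkl1 siRNA, and Pdpn (podoplanin), which read 10.83 with Mkl1 siRNA and 11.94 with control siRNA, beside 11.97 with DMSO and 12.02 with Y-27632, while Pdgfra differed by -0.03. Their summed linear signal was 96491 with Mkl1 siRNA and 112977 to 121507 on the other 3 arrays. Mature adipocyte markers were above 0 in 13 of 14 cases, 10 by 2-fold or more, with a median of 1.72 and a median of -0.02 for control siRNA against DMSO. Their summed signal was 25800 with DMSO, 56394 with Y-27632, 26453 with control siRNA and 61004 with Mkl1 siRNA. Of 10 brown and beige markers 2 reached the median of all values, 5 were above and 5 below 0, and the list median was -0.01. Ucp1, Cidea, Elovl3 and Ppargc1a read 3.69 to 4.45 on the siRNA arrays. Cox7a1 read 6.33 with control siRNA and 5.14 with Mkl1 siRNA, and Dio2 read 5.82 and 5.58. Prdm16 differed by 0.35, with 4 probe sets from 0.35 to 1.55. Of 10 endothelial and 12 macrophage and leukocyte markers 2 and 4 reached the median of all values, and their medians were 0.03 and -0.07. On the control siRNA and Mkl1 siRNA arrays, Pecam1 read 3.53 and 3.77, Ptprc 3.48 and 3.36, Adgre1 4.12 and 3.79 and Itgam 3.39 and 3.35. The 4 macrophage and leukocyte markers above the median of all values were Cd14 at 7.98 and 7.92, Csf1r at 6.40 and 6.45, Lyz2 at 6.32 and 6.19 and Cd3e at 6.10 and 6.14. The summed signal of the 12 was 632 with control siRNA and 609 with Mkl1 siRNA, beside 547 with DMSO and 516 with Y-27632, and the part of such cells in the chemokine and interferon values was not tested. RMA values have no true 0, so the absence of a marker cannot be stated. Smooth muscle markers had 9 of 10 below 0 (median -0.42), but Smtn, Tagln, Lmod1, Acta2, Cnn1 and Actg2 are also counted in the actin list. Outside that list Myocd, Synm, Des and Myh11 differed by -0.12, -0.10, -0.03 and 0.08, and another Synm probe set by 1.10. Markers of osteoblasts, chondrocytes and skeletal myoblasts had medians of 0.03, -0.17 and -0.14. Sox9 at -1.05 was the only chondrocyte marker past 2-fold and Phex at 1.44 the only osteoblast marker. Phex gave 4.49 with DMSO, 5.22 with Y-27632, 3.64 with control siRNA and 5.08 with Mkl1 siRNA, below the median of all values on each array.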

How the data were processed

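Each group, as its label names it, is 1 Affymetrix array of total RNA from mouse DFAT cells. Per the submitters' processing notes, the log2 signals that the authors deposited for every probe set come from RMA. Its version, the chip definition and which arrays it was run on together are left unstated in the sources used here. RMA compresses weak signals, and its normalisation hides differences in total RNA per cell.

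Of 45101 probe sets, 34958 carry 1 gene symbol in the platform annotation, 932 several and 9211 none. Without control probe sets 34945 were used, of which 34741 were renamed through a RefSeq gene table (GRCm38.p6) and 204 kept the platform symbol. Each of 18193 genes was read from its probe set of highest mean over the 4 arrays, with no filter on low values. A difference of 2-fold, or 1 in log2 units, was the threshold for counts.

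With 1 array per group no test, p-value or leave-one-out was possible, and precision is limited by the number of arrays. The members and lists were chosen with earlier results of these data known. Named genes were the 30 highest and 30 lowest for which opposing probe sets did not outnumber agreeing ones, up to 8 members per list furthest from 0, any single member against the rest, and Mrtfa, Mrtfb, Srf, Myocd, Pparg, Cebpa, Fabp4, Adipoq, Acta2, Actb, Actg1, Tagln, Ccl8 and Ccl11. Other list members were named for their role, with values already seen.

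The alternatives tried were the mean of probe sets, leaving out probe sets ending in _s_at, _x_at or _a_at, filters at the median and the 75th percentile, loess, subtraction of the median, a 1.5-fold threshold and DMSO as the control. Promoter windows were searched on both strands, the CArG box with its central run of any A or T. Python 3.11.15, numpy 2.4.6, pandas 2.3.3, statsmodels 0.14.6 and matplotlib 3.10.9 were used, and the calculations were tested on simulated data.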

Additional observations from a re-analysis of the deposited data

Results flagged for a closer look

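Probe sets with no gene symbol stand outside the gene comparisons. Of 9160, 58 lay above and 25 below control siRNA by 2-fold or more with Mkl1 siRNA (0.633% and 0.273%), and in control siRNA against DMSO 35 were higher and 16 lower (0.382% and 0.175%). The highest of them differed by 4.66 and the lowest by -1.82. They were looked at because their counts exceeded those between the control arrays, and their genes are not analysed here.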

How the results depend on the processing

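No paired analysis was possible because each group has 1 array. The counts of 218 higher and 207 lower genes became 81 and 121 among 6921 genes with a mean level at or above the 75th percentile, 688 and 742 with a 1.5-fold threshold, and 332 and 393 with DMSO as the control. They stayed within 1.5 times under the mean of probe sets (167 and 145), loess (220 and 207) and median subtraction (229 and 200). The same held without probe sets ending in _s_at, _x_at or _a_at (185 and 187 among 16591 genes) and with the median filter (184 and 190 among 11164). Filtered settings hold fewer genes than the 18193 of the main setting, so these are changes in counts and not in shares. With DMSO as the control, among medians of at least 0.1 in size and genes past 2-fold, the medians of the myosin (0.0177), chondrocyte (0.0772) and skeletal myoblast (0.0368) lists and the differences of Adh1 (-0.5058), Cth (-0.5795), Hsd17b7 (0.7843), Mgp (0.4118) and Smoc2 (0.0307) took the opposite sign; these follow from the difference between the control arrays. Rarres2 stood at -0.0586 without probe sets ending in _s_at, _x_at or _a_at, where another of its probe sets is read. Of 432 named genes, DMSO as the control moved 122 by 0.5 or more, the mean of probe sets moved 28, and loess and median subtraction moved none. Of 53 list medians, DMSO as the control moved 25 by 0.1 or more besides the 3 above, the 75th-percentile filter 15 of 48, the median filter 10, leaving out probe sets ending in _s_at, _x_at or _a_at 8 and the mean of probe sets 4. Weak signals limit what the higher genes with a control siRNA value below the median can show. The same holds for the lower genes with a Mkl1 siRNA value below it.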

Other observations

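Further families, given as values, show how single members stood apart from their lists. Of 15 carbonic anhydrases, which interconvert carbon dioxide and bicarbonate, 11 were below 0 and the median was -0.06, but Car3, the cytosolic form abundant in fat, gave 5.38 with DMSO, 5.66 with Y-27632, 4.39 with control siRNA and 8.03 with Mkl1 siRNA, and Car5b, a mitochondrial form, gave 8.62 with Mkl1 siRNA and 6.66 with control siRNA, beside 6.47 with DMSO and 8.48 with Y-27632. Only Mkl1 siRNA stood high for Car3, with 4 probe sets from -0.01 to 3.64, and for Car5b Y-27632 was close to it. Hox genes, which keep the positional identity of a cell, had a median of 0.06 over 30 genes. Hoxa9 gave 10.12 with DMSO, 10.28 with Y-27632, 10.24 with control siRNA and 11.24 with Mkl1 siRNA and Hoxc8 gave 10.95 with Mkl1 siRNA and 10.17 with control siRNA, beside 9.90 with DMSO and 10.04 with Y-27632, the highest with Mkl1 siRNA, while Hoxc10 and Hoxa10 differed by -0.05 and 0.29.

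Semaphorins, plexins and neuropilins, ligands and receptors of cell guidance, were below 0 in 21 of 28 cases with a median of -0.11. Over all genes 53.3% were below 0. The ligand Sema7a gave 8.58 with DMSO, 10.02 with Y-27632, 9.31 with control siRNA and 8.06 with Mkl1 siRNA, the lowest with Mkl1 siRNA, and the receptor Plxnd1 gave 9.46 with Mkl1 siRNA and 8.16 with control siRNA, beside 8.13 with DMSO and 8.69 with Y-27632, the highest. IGF ligands and binding proteins had a median of -0.01, with Igf1 at 0.12, Igf1r at -0.29 and the protease Pappa at 0.68, and none of 17 was past 2-fold (425 of all genes, 2.34%, were). Igfbp4 gave 9.60 with DMSO, 10.44 with Y-27632, 6.89 with control siRNA and 7.40 with Mkl1 siRNA, with both siRNA arrays below the other 2. Lysosomal genes had a median of -0.08 and none of 31 past 2-fold, with the cathepsins Ctsh and Ctsb at -0.43 and -0.09 and the proton pump subunit Atp6v1a at -0.56.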
